A study of Mus musculus with 4 samples.

Results

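The genes described here encode 10 proteins of the SET-domain family of histone methyltransferases: Setd1a, Setd1b, Kmt2a, Kmt2b, Kmt2c, Kmt2d, Setd2, Ash1l, Setd5 and Setdb1. They were chosen by name, out of 6078 gene symbols in all lists, with earlier results of these data known. Every row of 3 deposited m6A peak lists whose gene column held one of these symbols was taken. All 10 had peaks, with 97 of the 15439 peaks of the control list, 100 of the 15417 peaks of the Mettl3-knockdown list and 3 of the 1851 peaks listed as higher in the control. The cells were mouse embryonic fibroblasts that expressed the oncogenes E1A and HRasV12, and every group carried both oncogenes and received doxorubicin, which damages DNA, at 0.2 µg/ml for 6 h. The control cells carried control shRNA, named shLuc in the sample title, and the other cells one directed at Mettl3, which encodes the catalytic protein of the m6A writer complex. Each condition had 1 m6A-eCLIP library, in which an antibody against N6-methyladenosine (m6A) is crosslinked to RNA and the bound fragments are sequenced, and 1 input RNA library. The labels give polyA RNA for m6A-eCLIP and total RNA for the input, and no group without doxorubicin was analysed here. How much Mettl3 remained after knockdown was not analysed here. The question of the series was which m6A marks depend on Mettl3 after DNA damage. With 1 library per condition, no difference below has a replicate check, p-values between conditions were not computed, and intervals cover counting error only.

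The SET domain transfers methyl groups from S-adenosylmethionine to lysines of histone tails. The SET1 and MLL enzymes methylate lysine 4 of histone H3 inside COMPASS complexes, a mark of active promoters and enhancers. Setd2 and Ash1l methylate lysine 36, a mark of transcribed genes, and Setdb1 methylates lysine 9, a mark of silent chromatin. m6A is written on mRNA during transcription, most densely in long internal exons and near stop codons, and the lysine 36 mark laid down by SETD2 has been described as a guide for the m6A methyltransferase in mammalian cells.

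In both libraries the m6A of these transcripts lay almost wholly in coding sequence, often at several separate places of a gene, and most of these places were listed in both libraries. The listed peaks are pieces that often adjoin, so touching pieces of a gene were joined into stretches, and stretches of both lists that overlapped were joined into sites. The 97 control pieces formed 45 stretches and the 100 knockdown pieces 39, which made 49 sites. Of these, 34 were found in both libraries, 10 in the control list only and 5 in the knockdown list only. The control list covered 11248 bases of the 10 genes and the knockdown list 11274, of which 9000 were the same bases. All folds are the authors' own log2 folds over input, and both lists hold only pieces with a log2 fold above 3, so a place missing from a list may still be enriched to a lesser degree.

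**Figure D1:**
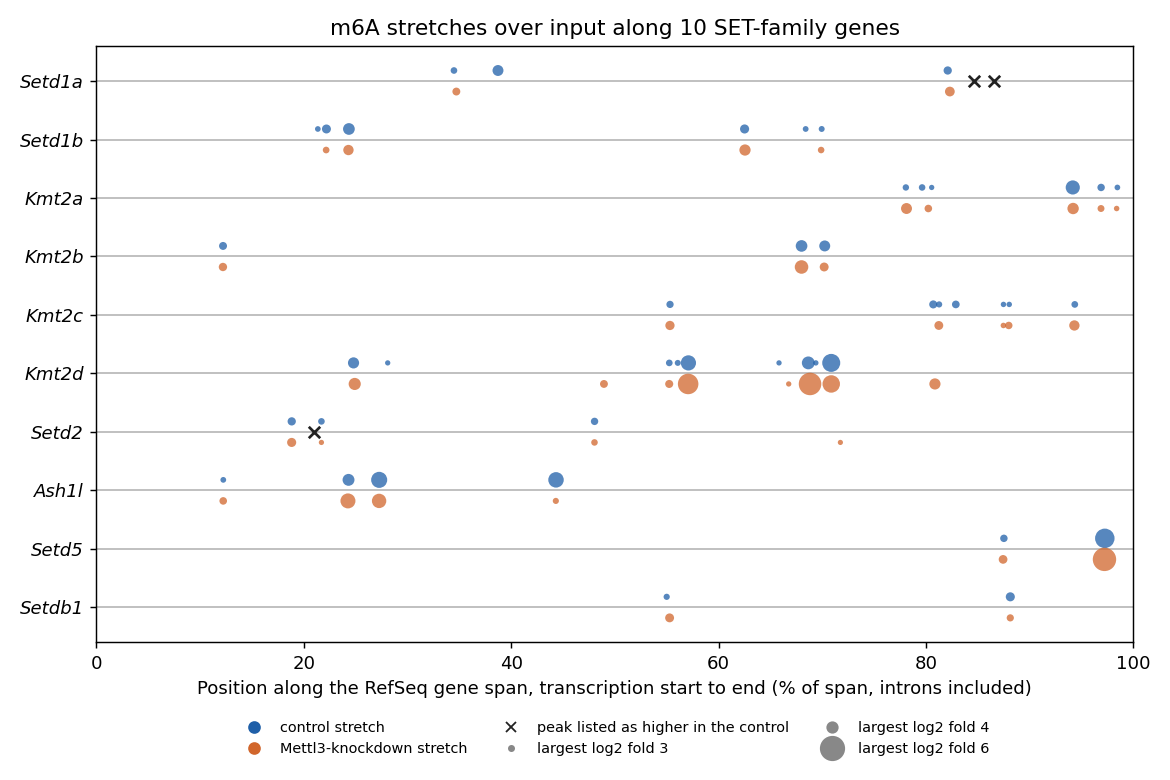
Joined stretches of the control list (blue) and the Mettl3-knockdown list (orange) along each gene, from transcription start to end in percent of the RefSeq gene span, with circle area growing with the largest log2 fold over input. Crosses mark the 3 peaks listed as higher in the control, 2 in Setd1a and 1 in Setd2. Most stretches of one library have a partner at the same position in the other.

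Coding sequence held 90 of the 97 control pieces, or 92.8% (exact 95% interval 85.7 to 97.0), and 91 of the 100 knockdown pieces, or 91.0% (83.6 to 95.8). Over all peaks of the lists these shares were 57.0% and 60.5%. A high coding share was not particular to the 10 genes. In the gene lists read below, coding sequence held 38 of 49 control pieces of other SET-domain genes and 19 of 23 of COMPASS subunits. For partner genes it held 13 of 34. Counted as stretches, 40 of 45 in the control and 34 of 39 in the knockdown were wholly coding, 88.9% and 87.2%, beside 52.8% and 56.4% of all stretches. The 3' UTR held 6 control and 7 knockdown pieces, all in Kmt2a and Setd5. No piece of the 10 genes lay in a 5' UTR or an intron by the authors' annotation. The pieces left over, 1 in the control and 2 in the knockdown, were annotated as noncoding exon and lay in Setd1a. The coding length of the genes was not analysed here, and whether the coding share goes with it was not tested.

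The folds of the pieces were close to those of all peaks. A log2 fold of at least 4 was reached by 31 of 97 control pieces, beside 32.7% of all control peaks, and by 39 of 100 knockdown pieces, beside 41.4% of all knockdown peaks. Their median log2 fold was 3.64 in the control and 3.84 in the knockdown, beside 3.69 and 3.83 over all peaks. The numbers of stretches and listed bases per gene were above those of the median gene. Transcript length was not taken into account. The members had a median of 3.5 stretches and 1014 listed bases per gene in the control, and 4 stretches and 979 bases in the knockdown. Genes with a peak had a median of 1 stretch in either list, with 334 and 326 listed bases.

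**Figure D2:**
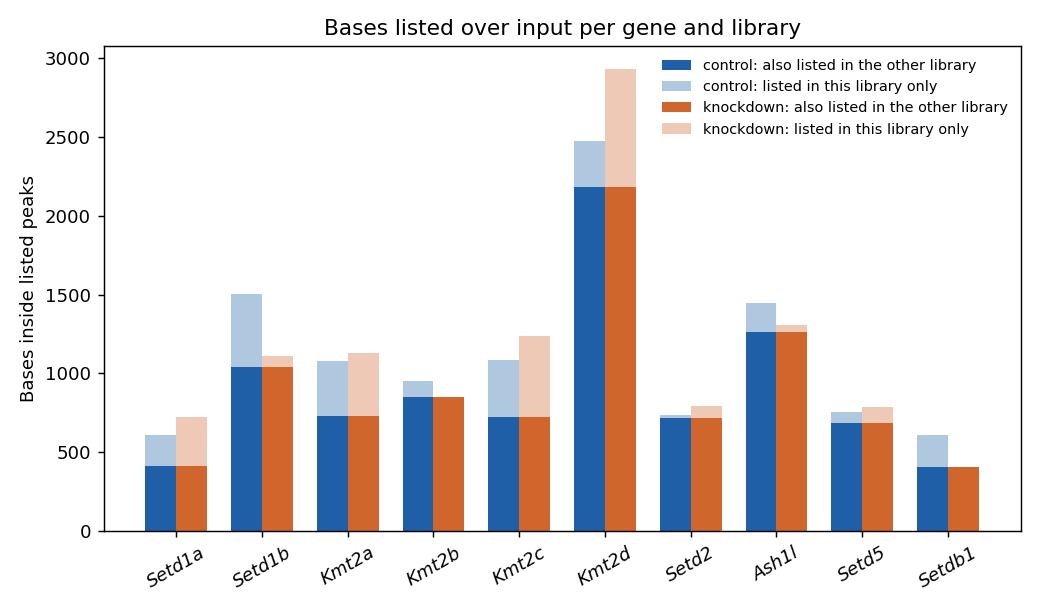
Bases inside listed peaks for each gene, with the control library in blue and the Mettl3-knockdown library in orange. The dark part of each bar is listed in both libraries and the pale part in that library only. Kmt2d has the tallest bars, at 2476 and 2932 bases.

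Setd1a (ENSMUSG00000042308) and Setd1b (ENSMUSG00000038384) are the catalytic subunits of the SET1 complexes, which trimethylate H3K4 at promoters. Setd1a, on the plus strand of chromosome 7, had 3 stretches in the control and 2 in the knockdown. The first, at 127785084 to 127785473 (mm10), was found in both lists, with a largest log2 fold of 3.33 in control cells and 3.57 after knockdown. The second, at 127786097 to 127786289, was listed only in the control, at 4.08, the largest fold of any site found in the control list alone. The third stretch, at 127795934 to 127796270, reached 3.64 in the control and 3.89 in the knockdown, but the knockdown stretch was longer, 337 bases against 129. Over its shared bases the mean log2 fold was 3.64 in control cells and 3.26 after knockdown. The ranking of the libraries there thus differed between the strongest piece and the common bases. Its knockdown pieces carried both the coding and the noncoding-exon annotation.

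Setd1a also held the clearest entry of the family among the peaks listed as higher in the control. In the authors' deposited table, the peak at 127797075 to 127797086 had a log2 difference of 2.42, a 5.36-fold difference, with p = 4.73e-10. All 1851 peaks in the authors' deposited table had a log2 difference of at least 0.50 and p of at most 0.0499. This peak ranked 13 by difference and 89 by p. It was 12 bases long, and 102 of the 1851 peaks in the authors' deposited table were as short or shorter. A wider Setd1a peak of 107 bases, at 127796569 to 127796675, had a log2 difference of 0.64 (p = 0.00907) in the authors' deposited table. It ranked 1371 by difference and 1063 by p. Both Setd1a peaks lay in coding sequence, downstream of the site at 127795934. The 107-base peak began 449 bases past the nearest control peak and 298 bases past the nearest knockdown peak. For the 12-base peak these distances were 955 and 804 bases. Neither overlapped a peak over input in either library.

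Setd1b, on the plus strand of chromosome 5, had 6 control and 4 knockdown stretches, all in coding sequence. The site at 123148311 to 123148701 was the strongest in the control, at 4.21, and stood at 3.99 in the knockdown. In the knockdown the strongest site was that at 123158525 to 123158817, at 4.13, which stood at 3.78 in the control. Of the matched sites, that at 123147793 to 123148071 was lower in the knockdown, 3.34 against 3.76 in the control, and that at 123160545 to 123160710 was close in both, at 3.32 and 3.19. The control list alone held 2 further sites, at 123147659 to 123147775 with 3.13 and at 123160067 to 123160392 with 3.16, both close to the lower limit of the list. Listed bases numbered 1503 in the control and 1109 in the knockdown. No Setd1b peak was in the authors' deposited table of peaks higher in the control.

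Kmt2a (ENSMUSG00000002028) and Kmt2b (ENSMUSG00000006307) form the branch of the MLL enzymes that works with menin, and Kmt2a is known for keeping Hox genes active. Kmt2a, on the minus strand of chromosome 9, was one of 2 members with m6A across the junction of coding sequence and 3' UTR. Its site at 44807694 to 44808057 held coding and 3' UTR pieces in both lists. Its largest log2 fold was 4.59 in the control and 4.15 in the knockdown. Further into the 3' UTR lay a site at 44805636 to 44805916, with 3.49 in the control and 3.39 in the knockdown, and one at 44804481 to 44804613, with 3.13 and 3.08. All 3 of these 3' sites were thus a little lower in the knockdown library, with differences in the largest log2 fold from −0.05 to −0.44.

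Upstream, the coding sequence of Kmt2a was less alike in the libraries. The site at 44820256 to 44820563 reached 3.29 in the control and 4.08 in the knockdown. Between 44818476 and 44819317 the libraries listed different bases: the control had stretches at 44818476 to 44818555 (3.03) and 44819155 to 44819317 (3.32), and the knockdown had one at 44818694 to 44818840 (3.51) between them. No base was shared there.

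Kmt2b, on the minus strand of chromosome 7, had 3 sites, all coding and all in both lists, and all 848 bases listed after knockdown were listed for the control as well. The sites at 30575153 to 30575481 and 30574736 to 30574995 are neighbours. The former reached 4.20 in the control and 4.50 in the knockdown, and the latter 4.09 and 3.75. The site at 30586411 to 30586770, near the 5' end of the gene, stood at 3.58 in control cells and 3.65 after knockdown, with borders that differed by 6 and 2 bases.

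Kmt2c (ENSMUSG00000038056) and Kmt2d (ENSMUSG00000048154) are the enzymes that monomethylate H3K4 at enhancers, and their transcripts are very long. Their log2 folds over input differed. Kmt2d, on the minus strand of chromosome 15, had more listed bases than any other gene of the knockdown list, 2932, and 2476 in the control, where only 1 gene had more. It had 9 stretches in the control, and no gene of that list had more, and 8 in the knockdown. All its 24 control and 29 knockdown pieces were in coding sequence, and they made 11 sites, of which 5 were in both lists.

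The strongest place of Kmt2d was not the same in the 2 libraries. In the control it was the site at 98843818 to 98844224, where a 21-base piece stood at 5.19, and the knockdown list reached 5.10 there. In the knockdown it was the neighbouring site at 98844593 to 98845182, where a 22-base piece stood at 5.87, while the control list reached 4.39. Over the bases shared by both lists, the mean log2 fold of the first site was 4.02 in the control and 4.01 in the knockdown, and that of its neighbour 3.77 and 4.27. The site at 98849628 to 98850121 was higher in the knockdown too, with 4.76 in the control and 5.57 in the knockdown. The remaining matched sites, at 98850470 to 98850823 and 98863243 to 98863785, stood at 3.34 and 4.12 in the control and at 3.60 and 4.27 in the knockdown.

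Kmt2d also had 6 of the 15 unmatched sites. The knockdown list alone held a stretch of 353 bases at 98839603 to 98839955, with pieces of up to 4.12. It was the strongest site of the family found in that list alone, and no control piece touched it. The other knockdown-only sites, at 98845713 to 98845808 and 98853266 to 98853371, stood at 3.04 and 3.57. The 3 control-only sites of Kmt2d stood at 3.03 to 3.20.

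Kmt2c, on the minus strand of chromosome 5, had many weak sites: 7 in the control, of which 5 were also in the knockdown list, all coding. Its largest log2 fold was 3.60 in the control, the lowest maximum of the 10 genes, and 3.98 in the knockdown. It was also the one member without any piece at the upper limit of 400 in the deposited −log10 p, with a largest value of 37.4 for the control and 77.4 for the knockdown. All 5 matched sites had the higher fold in the knockdown, by 0.02 to 0.63. The knockdown stretch was the longer one at 3 of them. At 25298902 to 25299168, for example, 236 bases were listed in the knockdown and 80 in the control. The 2 sites listed in the control alone, at 25310556 to 25310732 and 25315548 to 25315625, stood at 3.53 and 3.60.

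**Figure D3:**
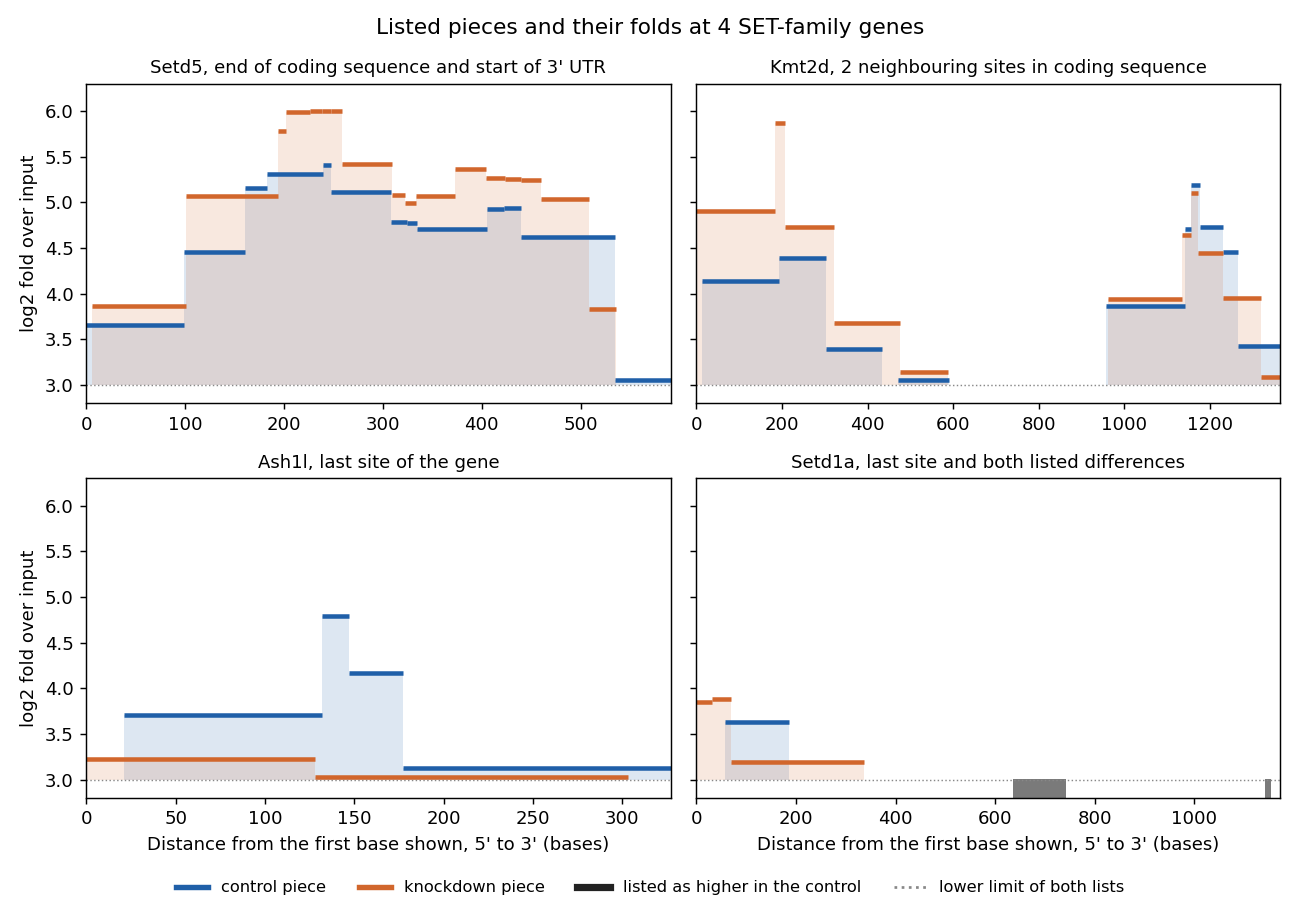
Listed pieces at 4 places, each drawn as a bar at its log2 fold over input against the distance in bases along the transcript direction, with the control in blue, the Mettl3 knockdown in orange and peaks listed as higher in the control as dark blocks under the dotted limit line. Setd5 and the upstream Kmt2d site run higher in the knockdown over most of their length. The last Ash1l site runs higher in the control, with 4.80 against 3.03 at 15 bases and means of 3.56 against 3.10 over shared bases. Both listed Setd1a differences lie beyond the Setd1a pieces over input.

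Setd2 (ENSMUSG00000044791) trimethylates H3K36 on transcribed genes. On the plus strand of chromosome 9 it had 3 control and 4 knockdown stretches, all coding. The 3 matched sites kept nearly the same borders, within 2 to 9 bases. They reached 3.63, 3.33 and 3.47 in the control and 3.78, 3.02 and 3.32 in the knockdown, at 110548635 to 110548801, 110551096 to 110551278 and 110573679 to 110574081. Over shared bases all 3 were lower in the knockdown, with log2 differences of −0.19, −0.31 and −0.21. The knockdown list alone held a 58-base stretch at 110594277 to 110594334, at 3.004, on the lower limit.

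Setd2 was the other member with a peak listed as higher in the control. The authors' deposited table gave the coding peak at 110550499 to 110550632 a log2 difference of 1.05, a 2.06-fold difference, with p = 0.0145. This peak ranked 361 of 1851 by difference and 1219 by p. It lay between the first and second site, 471 bases from the nearest control peak and 463 from the nearest knockdown peak, and overlapped neither. With Setd1a this made 2 of 10 members with such a peak, 20% (exact 95% interval 2.52 to 55.6). Of all genes with a control peak, 12.2% held one. With 10 genes the interval is too wide to tell the 2 shares apart.

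Ash1l (ENSMUSG00000028053), a Trithorax-group protein that methylates H3K36, had 4 coding sites on the plus strand of chromosome 3, all in both lists. At 88981510 to 88981999 the largest log2 fold was 4.24 in the control and 4.72 in the knockdown. At 88985371 to 88985783 it was 4.89 and 4.63, and at 88966058 to 88966317 it was 3.15 and 3.51. The last site, at 89007403 to 89007729, had the largest difference of the family in favour of the control: 4.80 against 3.23. At the 15 bases from 89007535 to 89007549, both libraries listed a piece at the limit of −log10 p, at a log2 fold of 4.80 in control cells and 3.03 after knockdown. The difference was 1.77. Over all 282 shared bases of the site the means were closer, 3.56 in the control and 3.10 in the knockdown. Ash1l had no peak in the authors' deposited table of peaks higher in the control. Such absences were common: of 279 shared pieces of all genes with at least 10 bases and a control fold higher by at least 1, 12 overlapped a peak of that table, or 4.30%.

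Setd5 (ENSMUSG00000034269) is a SET-domain protein found with the HDAC3 co-repressor complex, and its own enzymatic activity is disputed. It had the largest log2 fold over input of the 10 genes in both lists. On the plus strand of chromosome 6 its site at 113151052 to 113151642 ran from coding sequence into the 3' UTR. From 5' to 3', its pieces began at 3.65, reached 5.41 and ended at 3.06 in the control, and began at 3.86, reached 6.00 and ended at 3.83 in the knockdown. The highest control piece lay at 113151291 to 113151299. The knockdown list had 4 pieces of nearly the same height, from 5.99 to 6.00, between 113151254 and 113151310, which span the control summit. The change from coding to 3' UTR annotation fell at 113151475 for the control and 113151476 for the knockdown. Over shared bases the mean log2 fold was 4.63 in control cells and 4.97 after knockdown. A second, coding site at 113143744 to 113144015 reached 3.49 and 3.71. Like Setd5, Kmt2a had a control stretch that held both annotations, which made 2 of 10 members, beside 11% of all genes with a control peak.

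Setdb1 (ENSMUSG00000015697), which trimethylates H3K9 and silences endogenous retroviruses together with TRIM28, had the fewest pieces, 2 in each list on the minus strand of chromosome 3, all coding. The site at 95327365 to 95327668 stood at 3.77 in control cells and 3.44 after knockdown, over nearly the same bases. The site at 95338527 to 95338832 stood at 3.25 and 3.75, with 306 control bases and 108 knockdown bases. The 2 sites thus differed in opposite directions.

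Across the family, the 2 lists matched about as often as lists did in general. All 10 members had peaks in both lists, beside 82.8% of all genes with a control peak. The members were chosen with earlier results of these data known, so this count says nothing about the family. A knockdown piece overlapped 85 of 97 control pieces, 87.6% (79.4 to 93.4), beside 81.1% of all control peaks. A control piece overlapped 89 of 100 knockdown pieces, 89.0% (81.2 to 94.4), beside 83.7%. For stretches these counts were 35 of 45, 77.8% (62.9 to 88.8), beside 73.2%, and 34 of 39, 87.2% (72.6 to 95.7), beside 75.7%. Every one of these intervals holds the share of the whole list. Among 33 sites with 1 stretch in each list, the borders differed by a median of 11.5 bases, with quartiles of 5 and 31 and a largest shift of 194.

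**Figure D4:**
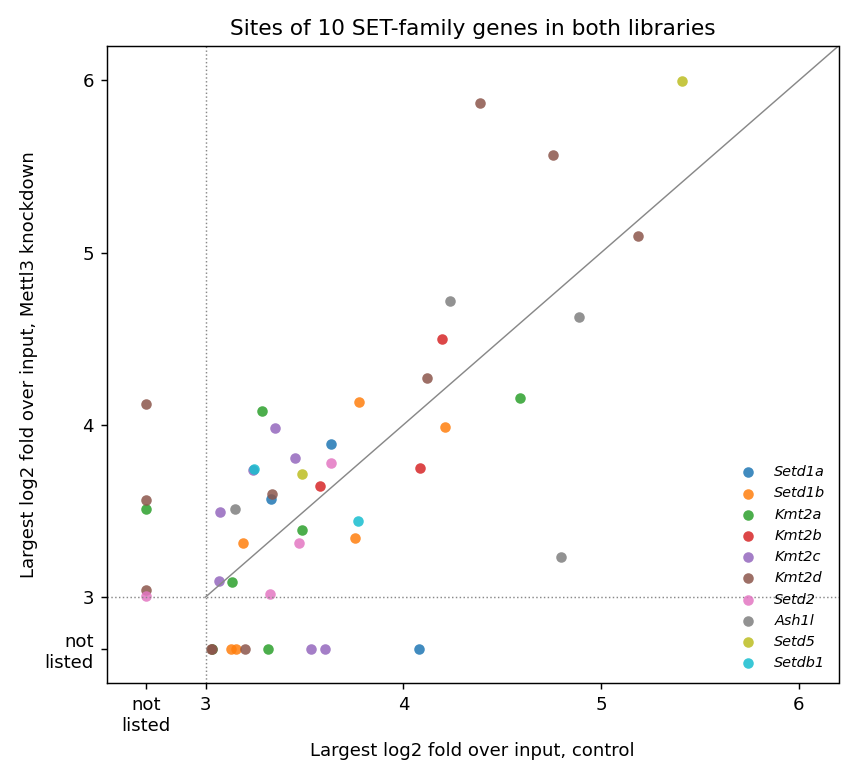
Each point is 1 of 49 sites, with its largest log2 fold over input in the control on the x axis and in the Mettl3 knockdown on the y axis; sites missing from a list are drawn at "not listed", and the dotted lines mark the lower limit of both lists at 3. The 34 matched sites lie on both sides of the diagonal, 22 of them above it, and the 15 unmatched sites lie along the margins, at folds from 3.004 to 4.12.

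Unmatched sites were mostly weak ones, as were unmatched stretches in the whole lists. The 10 control-only sites had largest folds from 3.03 to 4.08 with a median of 3.18, and the 5 knockdown-only sites from 3.004 to 4.12 with a median of 3.51. The matched sites had medians of 3.61 for the control and 3.75 for the knockdown. Over all control stretches the median was 3.80 for matched and 3.32 for unmatched ones. Over all knockdown stretches it was 3.84 and 3.44. Of the 34 matched sites, 22 had the higher largest fold in the knockdown and 22 the higher mean over shared bases, and the median difference of these means was 0.15. The whole lists leaned the same way: 57% of all genes with shared bases had the higher mean in the knockdown, with a median difference of 0.06. These counts were not made for the sites of all genes.

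**Figure D5:**
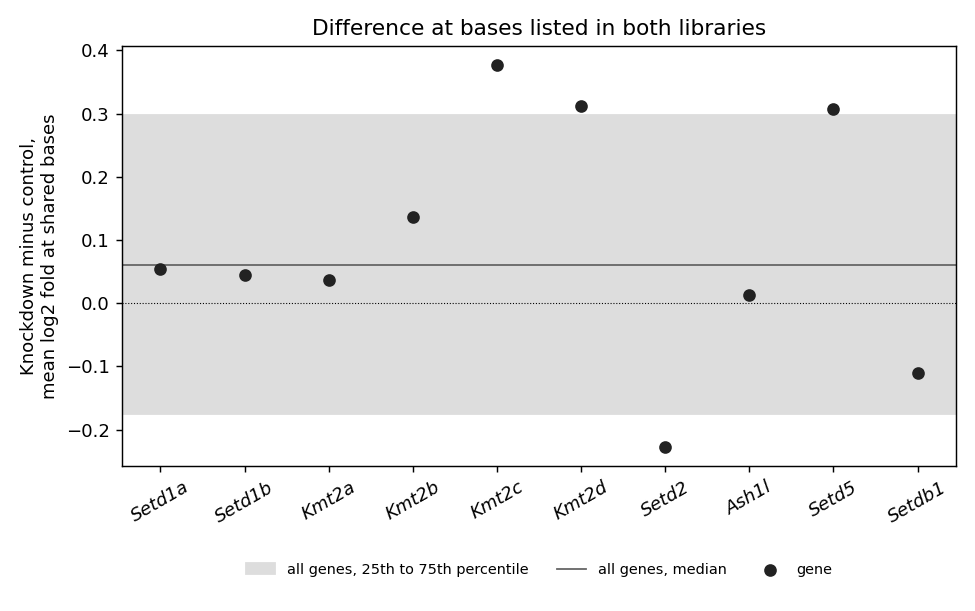
Mean log2 fold over input in the knockdown minus that in the control, over the bases of each gene listed in both libraries, with the median (line) and the quartiles (grey band, −0.17 to 0.30) of all 3812 genes with such bases. Kmt2c, Kmt2d and Setd5 lie just above the band and Setd2 just below it.

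Gene by gene, the folds at shared bases differed little between the libraries. The mean log2 fold was higher in the knockdown for 8 of 10 members, beside 57% of 3812 genes with shared bases. Read by the largest log2 fold of each gene instead, 5 of 10 were higher in the knockdown. The median difference, knockdown minus control, was 0.05 for the members and 0.06 for all genes. Kmt2c had the largest, 0.38, above those of 80.8% of the genes, followed by Kmt2d (0.31) and Setd5 (0.31). Kmt2b had 0.14, and Setd1a, Setd1b, Kmt2a and Ash1l had 0.01 to 0.05. Setd2 and Setdb1 were lower in the knockdown, with −0.23 and −0.11, and 20.5% of the genes had a smaller difference than Setd2. The median of the members turned to −0.09 when only pieces at the limit of −log10 p in both lists were read, which left 9 members, of which 4 were higher in the knockdown.

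Large differences at single shared pieces were few, again only among bases above the lower limit of both lists. Of the 106 shared pieces with at least 10 bases, 5 were higher in the control by at least 0.5, or 4.72%, beside 10.5% of such pieces over all genes. They lay in Ash1l, Kmt2d and Setd5. In the other direction 17 were higher in the knockdown, 16.0%, beside 20.7%. At a difference of at least 1 the counts were 2, both in the last site of Ash1l, beside 1.98%, and 3, all in Kmt2d, beside 5.83%.

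Other SET-domain genes and partners of these enzymes were read in 3 lists. Those with a control peak had a median of 1 control stretch in each list, the same as all genes with a peak. Single genes had more: Nsd1 had 6 control stretches, and Kmt2e, Hcfc1 and Morc2a had 4 each, beside 3 for Setd1a, Kmt2b and Setd2. Of 24 other SET-domain methyltransferase genes, 13 had a control peak, and the same 13 had a knockdown peak, beside 82.8% of all genes with a control peak. The peak lists hold only genes with a peak, so no share over all genes stands beside the 13 of 24. Nsd1, an H3K36 methyltransferase, led with 12 control and 9 knockdown pieces, up to 4.60 and 5.08. Kmt2e had 7 control pieces, Kmt5b, which methylates histone H4, had 6, and Nsd3 and Ehmt1 had 5 each. Neither list held a peak of the Polycomb enzymes Ezh1 and Ezh2, which were named after their values were seen. The authors' deposited table of peaks higher in the control named 4 of the 24, of which Nsd3 was the only one with a control peak. This was 1 of the 13 with a control peak, beside 12.2% of all genes with a control peak. In the authors' deposited table, the log2 differences were 1.34 for Nsd2 (p = 0.00464), 1.03 for the H3K9 enzyme Ehmt2 (p = 1.56e-08), 0.76 for Kmt5a (p = 0.0100) and 0.73 for Nsd3 (p = 0.0475). In the authors' deposited table, the largest differences of Nsd2, Ehmt2 and Kmt5a lay in the 3' UTR and that of Nsd3 in coding sequence, as did the 3 peaks of Setd1a and Setd2. Of all peaks in the authors' deposited table, 59.1% lay in the 3' UTR and 39.8% in coding sequence.

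Of 16 subunits of the COMPASS complexes, 7 had a control peak, and 5 of these 7 also had a knockdown peak, beside 82.8% of all genes with a control peak. Of the 7, 3 had a peak listed as higher in the control, beside 12.2%. The core subunits Wdr5, Rbbp5, Ash2l and Dpy30, named after their values were seen, had none in the 3 lists. Hcfc1 had 9 control and 12 knockdown pieces, with largest folds of 5.64 and 6.41, and Ncoa6, a subunit of the Kmt2c and Kmt2d complexes, had 8 in each list. Wdr82, of the SET1 complexes, had 2 control pieces and 1 knockdown piece, and the other 4 COMPASS genes with control peaks had 1 piece each. In the authors' deposited table, Ncoa6 and Psip1, which tethers the menin complexes to chromatin, each had a log2 difference of 0.78, Hcfc1 had 0.75 and Bod1 0.68. Of 24 genes for partners of Setdb1, Setd2, Setd5 and Ash1l, 7 had a control and 11 a knockdown peak. All 7 with a control peak had a knockdown peak, beside 82.8%, and 4 of the 7 had a peak listed as higher in the control, beside 12.2%. Tasor, Morc2a and Iws1 had 5 control pieces each. In the authors' deposited table, Morc2a had a log2 difference of 0.93, Tbl1x 0.78 and Ncor1 0.69. Peaks do not give transcript levels, so whether a gene without peaks was expressed was not analysed here.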

How the data were processed

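The authors deposited a peak list over input per m6A-eCLIP library and 1 list of peaks higher in the control library than in the Mettl3-knockdown library. Per the file headers, the lists over input give a log2 fold and a −log10 p-value per peak, and the comparison list a log2 difference and a p-value. UMI-tools 0.5.1, cutadapt 2.7 and the build mm10 are named in the submitters' processing notes. Neither the aligner nor the peak caller nor its statistics is given in the sources used here. The deposited −log10 values stop at 400. The depth of the libraries is unknown. RNA or protein levels were not used.

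Rows were taken by gene symbol, and the Ensembl identifiers gave the same rows. Neighbouring peaks adjoin without overlap when starts count from 0, and coordinates are printed 1-based. Pieces of a gene that touched were joined, and lists were compared by overlap of at least 1 base on the same strand. Means over shared bases were weighted by length. Gene spans came from RefSeq for GRCm38.p6, the assembly behind mm10. All 10 members lay inside their span, and no member piece met a piece of another gene. Intervals of shares are exact Clopper-Pearson 95% intervals from scipy 1.17.1 and treat pieces as independent although many adjoin. Python 3.11.15, pandas 2.3.3, numpy 2.4.6 and matplotlib 3.10.9 were used, and overlap and joining were tested on simulated data. Sequences under the peaks were not used here.

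The members, the gene lists and the settings were chosen with earlier results of these data known. Named genes were all members and, from each other list, up to 4 with the largest log2 difference and up to 4 with the most control peaks. Genes tied for the last place were named together. Some genes that this rule names are not reported here. Of 16 fibroblast marker genes 6 had a control and 7 a knockdown peak. Of 16 markers of blood, epithelium, endothelium and nervous system 0 had a control and 1 a knockdown peak.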

Additional observations from a re-analysis of the deposited data

How the results depend on the processing

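Of 41 alternative values for 16 results, 24 stayed within 1.5 times a count, within the interval of a share or within the spread over members. A log2 fold of at least 4 left 31 control and 39 knockdown pieces in 13 and 12 stretches. It raised the shares overlapped in the other list to 96.8% and 97.4%. At that setting 6 and 7 other SET-domain genes, 2 and 2 COMPASS genes and 3 and 3 partner genes had a control and a knockdown peak. The overlapped share of all peaks at that setting was not analysed here. Over all control peaks, overlapped ones had a median fold of 3.80 and the others 3.30. For all knockdown peaks these were 3.91 and 3.41. Pieces at the limit of −log10 p numbered 70 of 97 in the control and 65 of 100 in the knockdown. Over all peaks of the lists, 55.9% and 57.4% were at that limit. Requiring 50% of each knockdown piece to be covered gave an overlapped share of 81%, and counting bases gave 79.8%. With p of at most 0.001, 1 peak higher in the control remained, that of Setd1a. The median difference at shared bases turned from 0.05 to −0.0865 with pieces at the limit of −log10 p only, a setting chosen after seeing the data, as were those that left out Kmt2d or Setd5. The cause was not tested. No paired analysis was possible because each condition had 1 library, and none could be left out. Both lists start at a log2 fold of 3, which limits every statement on a missing site.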

Other observations

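The most frequent log2 fold of the control list, 3.03, was shared by 194 control pieces after rounding to 6 decimals. Among them were 2 member pieces, that of Kmt2a at 44818476 to 44818555 and that of Kmt2d at 98846135 to 98846179. Neither was overlapped in the knockdown list, beside 81.1% of all control peaks that were. How many of the 194 were overlapped was not analysed here. Of the 10 members, Setd1a alone carried the noncoding-exon annotation, on 1 control and 2 knockdown pieces. In each list 1 of them adjoined a coding piece, so the annotation changed within a stretch without a gap.

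Outside the SET-family genes, the knockdown list held 4 pieces of Tubb3, a neuronal tubulin gene, with a largest log2 fold of 6.58, while the control list held 0. Tubb3 was named after its values were seen.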
